A study of Mus musculus with 106 samples.

Results

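Proteasome subunit genes were taken as the protein-coding genes whose symbol starts with Psma, Psmb, Psmc, Psmd, Psme, Psmf or Psmg, apart from the 5 immune subunits Psmb8, Psmb9, Psmb10, Psme1 and Psme2. The rule used no measured value and found 45 of the 21938 protein-coding genes of the mouse annotation on GRCm38. By role they were 7 alpha-ring and 7 beta-ring subunits of the 20S core, 6 ATPases and 11 other subunits of the 19S cap, 7 assembly chaperones, 3 genes for activators or an inhibitor, 2 tissue-restricted core subunits (Psma8 of the testis and Psmb11 of the thymus), and 2 genes that carry the prefix only: Psmc3ip, a meiotic recombination factor, and Psme2b, named as a copy of the activator gene Psme2. The 31 ring, ATPase and other 19S subunits are called core subunits here.

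The proteasome degrades proteins that carry ubiquitin. Its core is a barrel of 4 stacked rings, the outer ones of alpha subunits, which gate the channel, and the inner ones of beta subunits, of which Psmb5, Psmb6 and Psmb7 carry the standard cutting sites. The 19S cap binds ubiquitin, removes it and threads the substrate in with its ring of ATPases. The genes are used by every cell, and a drop in proteasome activity raises their transcription together through the factor Nfe2l1. In macrophages given IFN-γ, Psmb8, Psmb9 and Psmb10 replace the standard beta subunits and Psme1 with Psme2 forms another cap.

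Chromatin immunoprecipitation sequencing of H3K27ac, an acetylation found at active promoters and enhancers, and of H3K4me3, a methylation found at active promoters, was performed to compare control with diabetic mice in hematopoietic stem cells (HSCs) and bone marrow-derived macrophages (BMDMs). All mice were wild-type C57BL/6J, 12 to 14 weeks old when they were assigned to the control or diabetic group. Diabetic mice had streptozotocin at 42 to 45 mg/kg/day over 5 days, and their cells were taken 6 weeks later at a blood glucose above 13.9 mmol/L. HSCs were bone marrow cells depleted of cells with lineage markers, an enrichment of progenitors rather than sorted stem cells. BMDMs were grown for 7 days in 5 mmol/L glucose with L929-conditioned medium, so that cells of diabetic origin spent that time in normal glucose. After these 7 days they were selected and plated, and had either 100 ng/mL LPS with 10 ng/mL IFN-γ or medium alone for 16 h. Each mark had 6 libraries a group, with 5 for unstimulated diabetic BMDMs (no number 3), making 35 peak lists a mark and 70 in all.

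A promoter was the 1000 bp to either side of any annotated start site of a gene. Each gene took the strongest peak that overlapped its promoter by at least 1 bp, ranked on the peak caller's −log10 p, and its rank among all protein-coding genes of the list was written as a percentile from 0 to 100, in which genes without a peak share the lowest ranks. A higher percentile therefore means a stronger promoter peak relative to other genes of the same library. In bulk libraries such as these, fewer cells with the mark and less mark per cell cannot be told apart. Occupancy was counted as a promoter peak anywhere in a list, or among its 10000 strongest peaks.

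The lists held 13730 to 277213 peaks (median 110154), and the reads behind them were not given, so that depth is unknown and a missing peak can mean low depth. Between libraries the promoter percentiles of all genes correlated with r of 0.730 to 0.951 in H3K27ac and 0.417 to 0.890 in H3K4me3. Stem and progenitor markers averaged percentile 55.4 and 55.1 in H3K27ac of control and diabetic HSCs against 41.0 to 43.7 in the BMDM groups, and macrophage markers 32.4 and 31.0 in HSCs against 38.0 to 44.3. In H3K4me3 the stem and progenitor markers did not separate the cells, at 65.3 and 67.2 in HSCs against 61.9 to 68.1 in BMDMs. Macrophage markers differed little there, at 26.2 and 28.5 in HSCs against 28.5 to 32.0. In H3K27ac 3 control BMDM libraries lay at the end of their groups nearest the other condition. On a score of 179 genes that rose and 244 that fell with stimulation in the diabetic H3K27ac libraries, members left out, control LPS+IFN-γ BMDM 5 scored −16.6 percentile points, the lowest of its group, and control unstimulated BMDM 5 and 6 scored 0.147 and −3.41, the highest of theirs. The next libraries, which were kept, were control LPS+IFN-γ BMDM 4 at −1.98 and control unstimulated BMDM 1 at −6.36. The unstimulated scores thus formed a spread without a clear break. In H3K4me3 the same score did not place these cultures at the ends: control LPS+IFN-γ BMDM 2 and 4 (−25.0 and −24.2) lay below number 5 (−22.4), and unstimulated 1 (−10.2) above 5 and 6 (−19.8 and −21.1). The differences of the members called in H3K27ac are also given without these 3 cultures where control BMDMs enter. Because the cultures were picked on genes that respond to stimulation, leaving them out tends to raise the stimulation difference of genes that move with those, and values without them are descriptions rather than independent tests. The H3K4me3 list of diabetic HSC 6, with 13730 peaks, was the shortest of all. The labels number libraries without tying them to mice, so that p-values measure the spread between libraries, which may be in part technical.

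Nearly every core subunit carried both marks in nearly every library. Between 41 and 45 members had an H3K27ac promoter peak in each library (median 44), and the 31 core subunits had one in 35 of 35. In H3K4me3 the count ran from 25 to 45 (median 44), and all 31 core subunits had a peak in 29 of 35 libraries. Among the 10000 strongest peaks of each list, a median of 39 members (86.7%) was found in H3K27ac against 40.7% of all genes, and of 28 members (62.2%) in H3K4me3 against 41.0%. The median member stood between percentile 71.95 and 86.94 of H3K27ac in the 35 libraries and between 59.98 and 80.02 of H3K4me3.

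**Figure D1:**
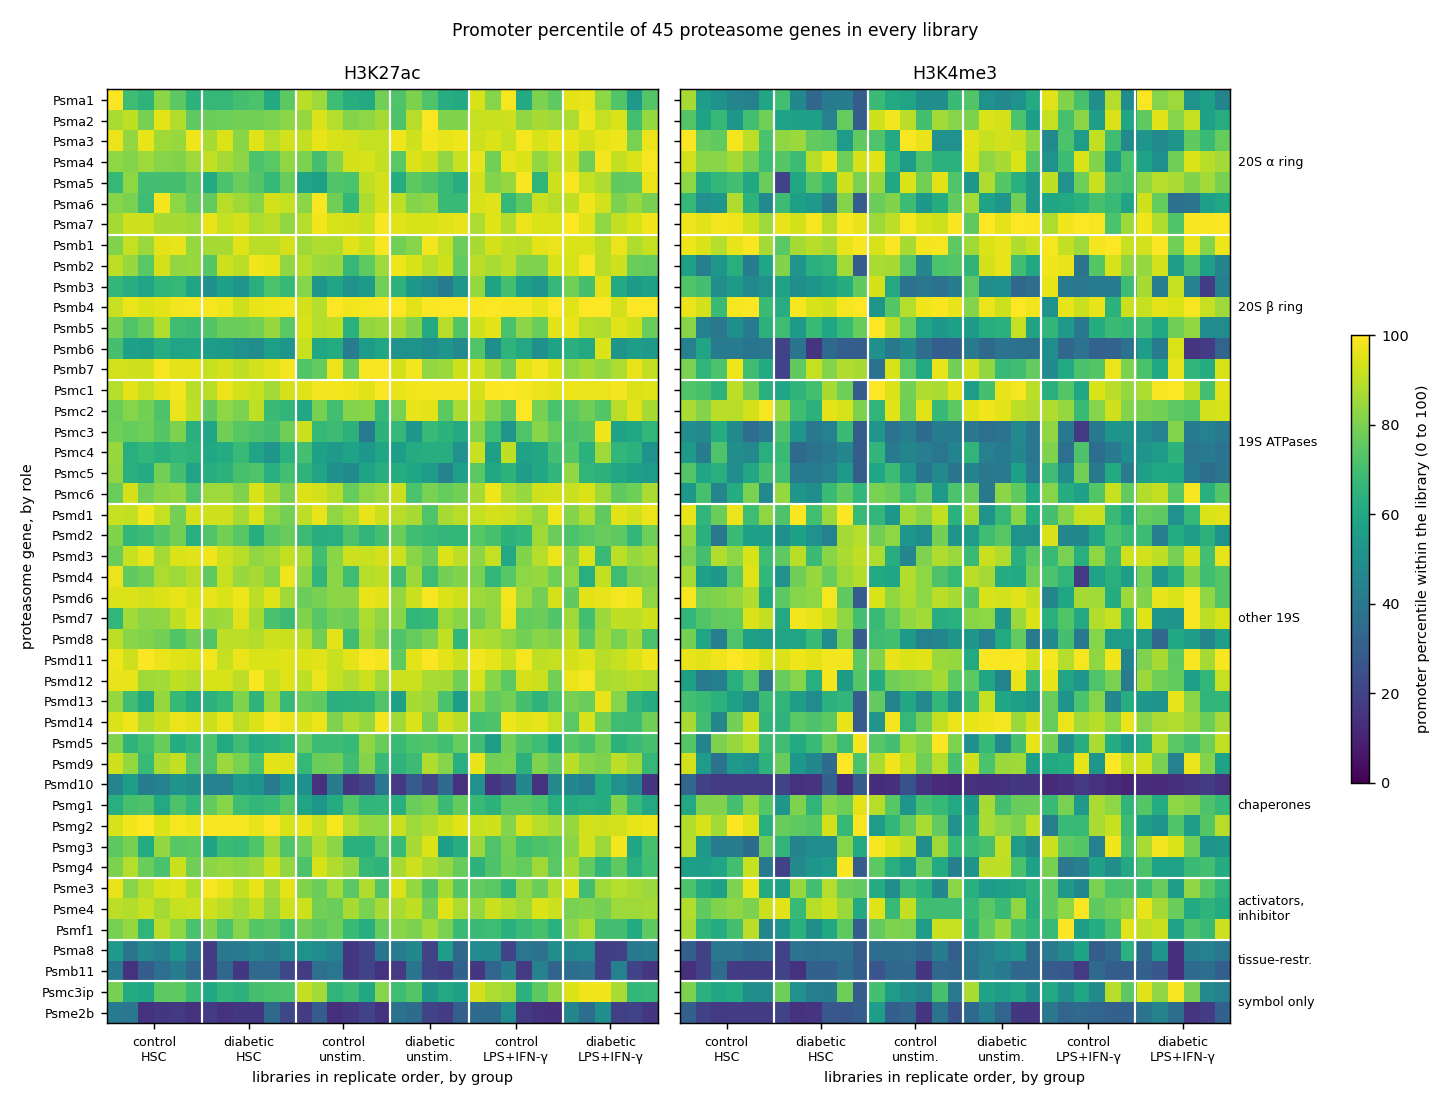
Promoter percentile within each library (color, 0 to 100) of the 45 proteasome genes (one line each, ordered by role) in 35 H3K27ac libraries (left) and 35 H3K4me3 libraries (right), with white lines between groups and between roles. Most lines stay bright across all groups, while Psmd10, Psma8, Psmb11 and Psme2b are dark, as is H3K4me3 at Psmb6.

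The heatmap of promoter percentiles shows that the lines of single genes differ more than the groups do. Averaged over the 35 libraries of a mark, the median over the 45 members was 81.7 in H3K27ac and 70.1 in H3K4me3, beside 49.1 and 54.1 over all protein-coding genes. Genes of the cytosolic ribosome, another complex that all cells need, had medians of 81.1 and 72.4 over 98 genes, and those of the mitochondrial ribosome 74.0 and 64.8 over 78. The other proteasome and regulator genes looked at (12, such as the ubiquitin receptor Adrm1) stood at 88.6 and 80.5, the genes of ubiquitin supply and delivery (14) at 84.6 and 76.4, and the 5 immune subunits at 81.4 and 73.8. The members' medians were above those of all genes in both marks.

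In 38 of 45 members the mean percentile was higher in H3K27ac than in H3K4me3, with a median difference of 10.3 percentile points against 1.49 over all genes, 9.78 for the cytosolic ribosome and 8.59 for the mitochondrial ribosome. The widest gaps were at the cap subunits Psmd8 (82.5 in H3K27ac and 56.4 in H3K4me3) and Psmc3 (70.1 and 46.5). Next came the chaperone Psmd10 (38.0 and 16.4), which had few H3K4me3 peaks, and Psma6 (84.1 and 62.6). The 7 members higher in H3K4me3 differed by little, from 4.69 points at the chaperone Psmg1 (68.4 in H3K27ac and 73.0 in H3K4me3) to 0.249 at Psmb11 (27.9 and 28.2). Across the 45 members the marks' mean percentiles correlated with a Spearman rho of 0.809, and of 0.759 over the 41 that are neither tissue-restricted nor members by symbol only. These values describe genes read from the same 70 libraries.

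**Figure D2:**
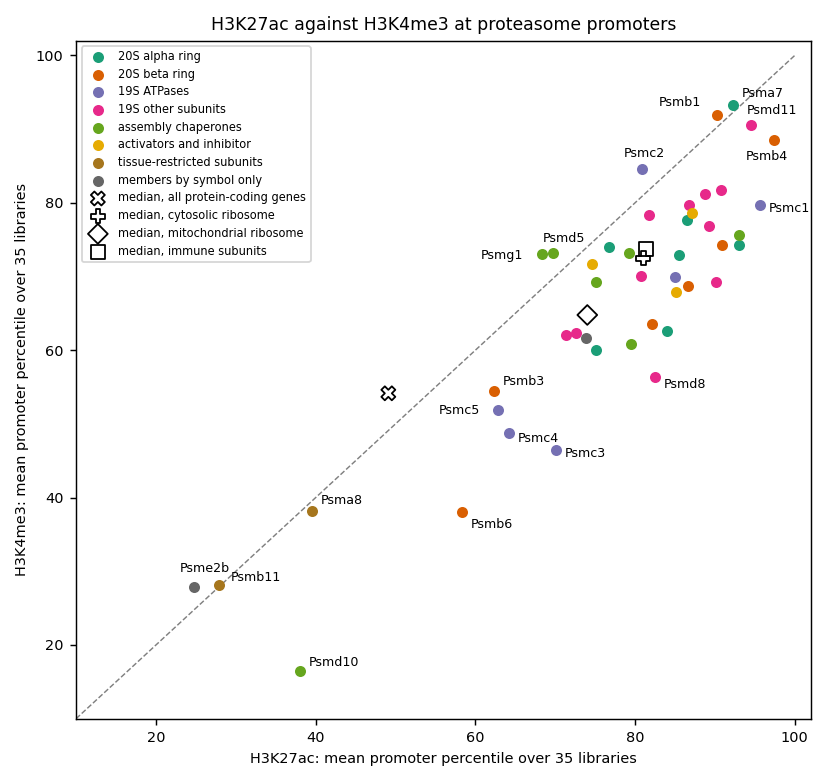
Mean promoter percentile over 35 libraries in H3K27ac (x axis) and in H3K4me3 (y axis); each filled point is one proteasome gene, colored by role, the open symbols are medians of gene sets, and the dashed line marks equal percentiles. Most members lie below the line, with Psmb4 (97.4 in H3K27ac) farthest to the right and Psmd10 (16.4 in H3K4me3) lowest.

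The alpha ring stood above the median of all genes in both marks, with a wider span in H3K4me3 than in H3K27ac. Its 7 members had H3K27ac means of 75.1 (Psma1) to 93.0 (Psma3), with a median of 85.5, and H3K4me3 means of 59.96 (Psma1) to 93.3 (Psma7), with a median of 74.0. Psma7, whose promoter overlaps that of the neighbouring gene Ss18l1, was in the 10000 strongest peaks of all 35 lists in both marks, with peaks of 1948 bp in H3K27ac and 1894 bp in H3K4me3 at the median, against 911 and 678 bp over all members. Psma5 was placed differently in its own locus: the summit of its strongest peak lay 508 bp past the nearest start site in H3K27ac, the farthest downstream of any member, within an intron.

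In H3K27ac the beta ring held both the strongest and the weakest core promoters. Psmb4, a structural subunit without a cutting site, had the highest H3K27ac of all members, at 97.4 ± 2.8 (SD, n = 35). Its lowest, median and highest percentile were 88.9, 98.5 and 99.9. Its peak stood at a median position of 291 in the lists, at position 12 in the best one, and among the 1000 strongest peaks in 28 of 35. Psmb6, the subunit of the caspase-like site, had the lowest H3K27ac of the core subunits at 58.3 ± 10.8 (SD, n = 35), with a lowest, median and highest value of 42.5, 55.9 and 94.8. Its H3K4me3 mean was 38.0 ± 13.9, a peak was listed in 30 of 35 libraries, and 1 of 35 placed it in the 10000 strongest. Its peaks were also narrow, 520 bp in H3K27ac and 376 bp in H3K4me3. The other catalytic subunits Psmb5 and Psmb7 stood at 82.1 and 90.9 in H3K27ac, and Psmb1, whose promoter overlaps that of Tbp, was in the 10000 strongest peaks of all 35 lists of each mark. The highest Psmb6 value exceeded the lowest Psmb4 value, but these came from different libraries. Within each H3K27ac library Psmb4 stood above Psmb6. In diabetic LPS+IFN-γ BMDM 3, where Psmb6 was highest, Psmb4 stood at 99.7, and in control unstimulated BMDM 1 they stood at 93.4 and 91.6.

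The promoters of these extremes, with that of the thymus subunit Psmb11 as a member with little of either mark, are printed 5′ to 3′ from 250 bases before to 50 bases after a RefSeq start site (GRCm38.p6). Such sequences were found for 37 of 45 members (39 promoters). Capitals mark matches, on either strand, to 7 letter strings named after the factor or element they are known from. These were CCGGAAG for ETS factors, GCATGCGC for NRF1 and AAGATGGC for YY1. The core promoter boxes were CCAAT for the CCAAT box, GGGCGG for the GC box and TATAAA for the TATA box. The antioxidant response element was searched as TGACNNNGC.
Psmb4, chr3:94886909-94887208, minus strand: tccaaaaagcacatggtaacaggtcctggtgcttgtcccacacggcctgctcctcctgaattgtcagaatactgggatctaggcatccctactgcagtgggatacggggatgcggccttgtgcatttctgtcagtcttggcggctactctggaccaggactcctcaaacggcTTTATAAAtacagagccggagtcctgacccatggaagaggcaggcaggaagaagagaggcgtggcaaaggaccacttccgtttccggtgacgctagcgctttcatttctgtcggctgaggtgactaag
Psmb6, chr11:70525107-70525406, plus strand: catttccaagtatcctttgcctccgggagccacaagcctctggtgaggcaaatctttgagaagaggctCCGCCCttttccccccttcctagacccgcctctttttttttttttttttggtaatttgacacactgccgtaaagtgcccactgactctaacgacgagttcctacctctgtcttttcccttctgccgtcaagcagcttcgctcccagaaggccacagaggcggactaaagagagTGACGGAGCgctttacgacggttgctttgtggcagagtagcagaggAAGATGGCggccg
Psmb11, chr14:54625060-54625359, plus strand: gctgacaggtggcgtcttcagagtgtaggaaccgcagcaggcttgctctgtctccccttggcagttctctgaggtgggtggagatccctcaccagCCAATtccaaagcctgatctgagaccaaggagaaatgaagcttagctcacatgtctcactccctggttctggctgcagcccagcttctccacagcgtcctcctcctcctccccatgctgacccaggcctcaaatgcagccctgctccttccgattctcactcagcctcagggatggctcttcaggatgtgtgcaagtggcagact
In the Psmb4 promoter the capitals are a TATA string that matched on both strands at overlapping positions. Psmb6 held a GC box, an antioxidant response element and a YY1 string close to its start, and Psmb11 a CCAAT box. CpG dinucleotides numbered 12 in Psmb4, 15 in Psmb6 and 4 in Psmb11.

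Over the 39 member promoters the ETS string was found in 16, from 15 genes (41.0%), against 11.9% of the 20150 promoters of protein-coding genes of the same length. These were Psma6, Psmc1, Psmc2 (both of its promoters), Psmc6, Psmd2, Psmd4, Psmd6, Psmd11, Psmd12, Psmd13, Psme3, Psme4, Psmg1, Psmg3 and Psmc3ip. The 21 matches lay at a median of 28 bases before the start site (−28), and 15 of them in the 100 bases before it. The YY1 string was found in 3 promoters (7.69% against 3.11% of all), NRF1 in 3 (7.69% against 3.65%), the antioxidant response element in 6 (15.4% against 13.1%), the GC box in 20 (51.3% against 47.8%), the CCAAT box in 14 (35.9% against 37.8%) and TATA in 3 (7.69% against 12.1%). Member promoters held a median of 20 CpG dinucleotides against 14 over all promoters, at a GC content of 57.3% against 57.0%. Among the 34 members with one promoter sequence each, the CpG count had a Spearman rho of −0.0548 with the H3K27ac percentile and 0.253 with the H3K4me3 percentile. A match describes letters in this window only.

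The 6 ATPases, the motor of the cap, split apart. Psmc1 had the second highest H3K27ac mean of all members, 95.6 ± 3.4 (SD, n = 35), and a median list position of 722. Psmc3, Psmc4 and Psmc5 stood much lower, at 70.1, 64.2 and 62.9 in H3K27ac and at 46.5, 48.8 and 51.9 in H3K4me3. Psmc2, whose promoter overlaps that of Dnajc2, was with Psma7 and Psmb1 one of 3 members in the 10000 strongest H3K4me3 peaks of all 35 lists, while 22 members were so in H3K27ac. The 11 other 19S subunits were the highest class in both marks, with medians of 86.8 and 76.9, and each stood higher in H3K27ac than in H3K4me3. Psmd11 led them, at 94.5 ± 4.4 in H3K27ac and 90.6 ± 12.0 in H3K4me3 (SD, n = 35). Psmd14, the enzyme that cuts ubiquitin chains off the substrate, stood at 88.8 and 81.2, and the ubiquitin receptor Psmd4 at 80.7 and 70.1.

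Among the assembly chaperones, 6 had an H3K27ac peak in all 35 lists, from Psmg1 at 68.4 to Psmg2 at 93.0. Psmd10, also known as gankyrin, was apart from them, with an H3K27ac peak in 25 of 35 libraries and an H3K4me3 peak in 3 of 35, and in the 10000 strongest in none of the 70 lists. Its promoter overlaps that of Atg4a, whose values were identical. The activators Psme3 and Psme4, which cap the core without ATP, stood at 85.1 and 87.2 in H3K27ac, and Psmf1, an inhibitor, at 74.6. The tissue-restricted subunits carried little: Psma8 had an H3K27ac peak in 28 of 35 libraries (mean percentile 39.5) and Psmb11 in 19 of 35 (27.9), against 31 and 24 in H3K4me3. Psme2b had the fewest H3K27ac peaks, in 13 of 35 libraries, and may share reads with Psme2. Psmc3ip, despite its meiotic role, had an H3K27ac peak in all 35 libraries, at a mean of 73.9.

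Peaks missing at core subunits were found in H3K4me3 and not in H3K27ac. In diabetic HSC 6, the shortest list, 13 of the 31 core subunits had no H3K4me3 peak. Diabetic HSC 1, with 39412 peaks, lacked Psma5, Psmb6 and Psmb7, and the other gaps were Psmb6 in diabetic HSC 3 and in diabetic LPS+IFN-γ BMDM 4, Psmb3 and Psmb6 in diabetic LPS+IFN-γ BMDM 5, and Psmc3 and Psmd4 in control LPS+IFN-γ BMDM 3. Of the 24 members that lacked an H3K4me3 peak in any library, 13 lacked it in diabetic HSC 6 only. Psmb6 was without an H3K4me3 peak in 5 of 35 lists, all of them from diabetic mice, and these lists held 13730, 39412, 51382, 82772 and 87577 peaks. A Psmb6 peak was listed in control HSC 2, 4 and 5, with 37378, 46665 and 46698 peaks. It was also listed in diabetic unstimulated BMDM 5 and 6, with 66146 and 77396 peaks, fewer than in some diabetic lists without it. Whether other genes split between diabetic and control lists as often was not tested.

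Peak summits at proteasome genes were concentrated just downstream of the start site. For 31 of 45 members (68.9%) the median H3K27ac summit lay 100 to 400 bp past the nearest start site, against 43.3% of all genes with a promoter peak, and for 30 (66.7%) in H3K4me3 against 41.0%. In H3K27ac the same was seen at 9 of the 12 other proteasome genes and 10 of the 14 genes of ubiquitin supply and delivery, against 49.5% of the cytosolic and 48.7% of the mitochondrial ribosome genes. The median offset was 150 bp for the members and 114 bp for all genes in H3K27ac, and −229 bp for the 5 immune subunits, none of which had its summit in that window. Summits lay most often in an intron at 20 members, in a coding exon at 10, in a non-coding part of an exon at 10 and outside the transcripts at 5. Psmb1, at −396 bp, lay the farthest upstream among the core subunits, on the side of Tbp.

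**Figure D3:**
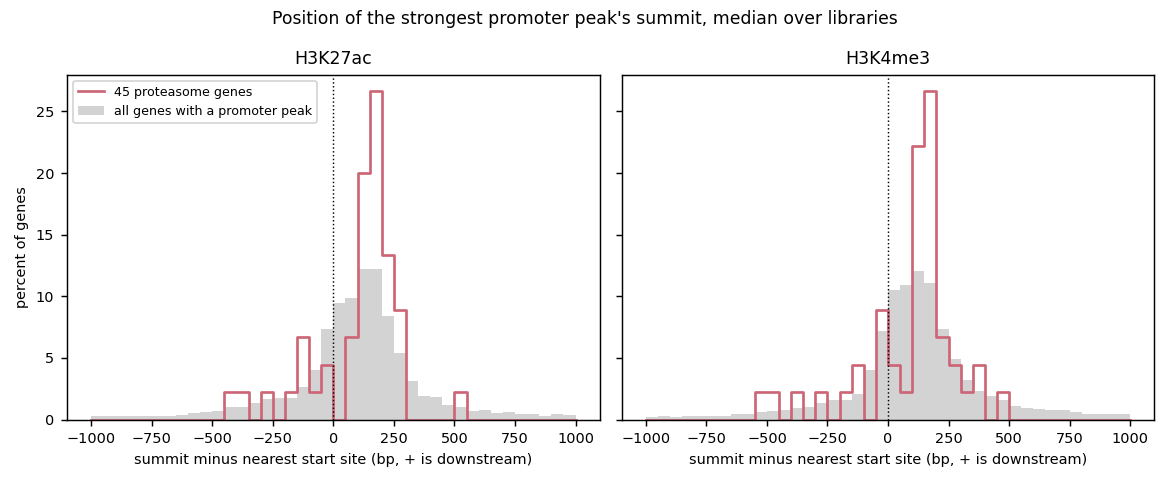
Distance of the strongest promoter peak's summit from the nearest start site (x axis, bp, positive downstream; median over libraries) in H3K27ac (left) and H3K4me3 (right), as percent of genes in each bin (y axis) for all genes with a promoter peak (grey) and for the 45 proteasome genes (line). The members' line exceeds the grey bars from 100 to 200 bp downstream in both marks.

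Diabetes was compared with control within HSCs, unstimulated BMDMs and LPS+IFN-γ BMDMs, the question the study was designed around. No member passed the test in any of the 6 comparisons (limma, Benjamini-Hochberg adjusted p under 0.05), nor did any of the 16825 genes tested in H3K27ac or the 17105 in H3K4me3, so that percent called was 0% in each. Because the tested value is a rank within a library, a gain or loss of a mark shared by all promoters would not show here. The result thus concerns the order of promoters and not the total level of either mark. At an unadjusted p under 0.05 there were 0, 3 and 2 of 45 members in H3K27ac of HSCs, unstimulated and LPS+IFN-γ BMDMs, beside 1.94%, 5.82% and 4.74% of all genes, and 3, 3 and 1 of 44 in H3K4me3, beside 4.62%, 3.99% and 5.16%. Psmd10 had too few H3K4me3 peaks to be tested. The median member differed between diabetic and control by −0.906, −0.219 and 0.612 percentile points in H3K27ac and by −0.480, −0.796 and 2.09 in H3K4me3.

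The members with the largest test statistic show how far single genes moved. In HSCs it was Psma2 in H3K27ac, with a difference of −6.80 percentile points from control to diabetic mice (79.3 ± 1.8 against 86.1 ± 7.5, SD, n = 6 each; adjusted p = 1.00). In unstimulated BMDMs Psmc2 was higher by 13.8 (86.9 ± 9.6, n = 5, against 73.2 ± 9.2, n = 6; adjusted p = 0.796), and in LPS+IFN-γ BMDMs Psmd14 differed by −9.88 (77.3 ± 9.3 against 87.1 ± 12.3, n = 6 each; adjusted p = 0.989). The groups overlapped in each case. In H3K4me3 the differences were larger but so was the spread: Psmd12 in HSCs was 74.6 ± 15.2 in diabetic and 52.8 ± 14.1 in control libraries, Psma3 in unstimulated BMDMs 91.0 ± 4.7 and 71.8 ± 21.9 (a difference of 19.2, and of 8.595 without the 3 cultures), and Psmd6 in LPS+IFN-γ BMDMs 87.9 ± 9.9 and 70.8 ± 17.6. None of the 3 passed the test (adjusted p = 1.00, 1.00 and 0.935), and all overlapped.

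Occupancy of the 10000 strongest peaks called 0 members between diabetic and control libraries (0% of genes), but few could be called: 1, 1 and 2 of 45 could pass an unadjusted exact test in H3K27ac of HSCs, unstimulated and LPS+IFN-γ BMDMs, and 12, 9 and 5 in H3K4me3. Psmb6 was the only one that did: its H3K27ac peak was among the 10000 strongest in 5 of 6 control HSC libraries and 0 of 6 diabetic ones (Fisher's exact test, two-sided, p = 0.0152, adjusted p = 1.00 over 731 testable genes). An unadjusted Fisher p under 0.05 was reached by 4 of these 731 genes. Its H3K27ac percentile was 55.8 to 70.6 in control HSCs and 48.8 to 56.8 in diabetic HSCs, with medians of 58.6 and 53.6. The percentile ranges overlapped, since control HSC 3 (55.8) lay below diabetic HSC 1 (55.9) and 5 (56.8). Outside the comparisons of cell states, no other member had a Fisher p under 0.05.

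**Figure D4:**
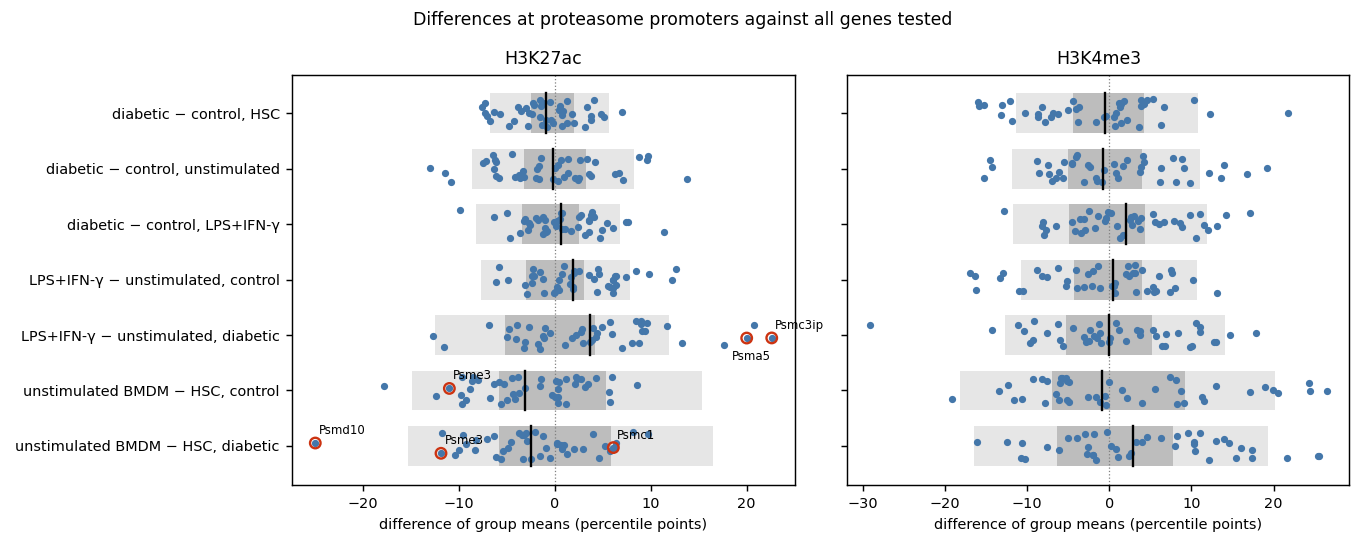
Difference of group means in percentile points (x axis) for each comparison (y axis) in H3K27ac (left) and H3K4me3 (right); each blue point is one proteasome gene, the black bar is their median, the grey boxes hold the middle 50% and 90% of all genes tested, and red circles mark members that passed the test. Red circles are found only in H3K27ac, in the diabetic stimulation comparison and in the cell state comparisons.

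Stimulation with LPS and IFN-γ was compared with unstimulated BMDMs to ask which promoters gain or lose the mark in inflammatory macrophages. In diabetic BMDMs 2 of 45 members passed the test in H3K27ac, both higher, Psma5 and Psmc3ip, beside 2.53% of all genes (425 of 16825), of which 1.08% were higher and 1.45% lower. In control BMDMs 0 of 45 did, as for all genes (0%), and 3 members had an unadjusted p under 0.05 beside 5.18% of genes. In H3K4me3 there were none in either (0% of all genes), with 2 of 44 at an unadjusted p under 0.05 in control and 2 of 44 in diabetic BMDMs, beside 3.35% and 6.87%.

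Psma5, an alpha-ring subunit, rose with stimulation in diabetic mice. In diabetic mice its H3K27ac percentile was 98.5, 91.3, 88.0, 75.4, 76.1 and 97.0 in LPS+IFN-γ BMDMs 1 to 6, and 62.1, 74.7, 72.1, 67.2 and 62.4 in unstimulated BMDMs 1, 2, 4, 5 and 6. Every stimulated library stood above every unstimulated one. The difference was 20.0 points (SE 5.58, adjusted p = 0.0412). In control mice the values were 93.6, 81.3, 84.2, 99.1, 65.5 and 92.6 after stimulation and 58.5, 56.7, 72.7, 71.8, 90.4 and 93.1 before, a difference of 12.2 (SE 5.32, adjusted p = 0.933). The 3 libraries out of order there, LPS+IFN-γ 5 and unstimulated 5 and 6, are the 3 cultures picked on the score of other genes. Without them the control difference was 25.2 (SE 4.89, adjusted p = 0.00599), from 90.2 ± 7.3 (SD, n = 5) and 64.9 ± 8.5 (n = 4). The diabetic minus the control effect was 7.82 over all libraries (SE 7.71, adjusted p = 0.899) and turned to −5.24 without the 3 cultures (adjusted p = 0.975). The diabetic call was lost without any one of LPS+IFN-γ 1, 2, 3 or 6 or of unstimulated 1, 4, 5 or 6, at adjusted p of 0.0595 to 0.0969, with differences of 17.8 to 22.5. It was also lost with ranking on fold enrichment (adjusted p = 0.223), 1 start site a gene, a stricter peak threshold, no filter, a normal score, the 2 groups alone and the replicate block (adjusted p of 0.0515 to 0.0973), and held in 8 of 23 alternatives.

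Psmc3ip rose in diabetic BMDMs by 22.6 points (SE 5.85, adjusted p = 0.0288). Its values were 94.7, 97.7, 98.0, 87.3, 66.3 and 67.1 in LPS+IFN-γ BMDMs 1 to 6 and 69.1, 73.3, 53.4, 60.3 and 56.7 in unstimulated BMDMs 1, 2, 4, 5 and 6. Libraries 5 and 6 of the stimulated group fell within the unstimulated range, so that the groups overlapped. In control BMDMs it was 81.6 ± 10.6 after stimulation and 75.5 ± 12.5 before (SD, n = 6 each; difference 6.10, adjusted p = 0.967, and 5.16 without the 3 cultures). The difference between these effects did not pass the test (16.5, SE 8.08, adjusted p = 0.755). The diabetic call was lost without any one of LPS+IFN-γ 1, 2 or 3 or of unstimulated 4, 5 or 6, at adjusted p of 0.0657 to 0.0973, and with ranking on fold enrichment (0.136) or the 2 groups alone (0.111).

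The promoters of both genes are shown because they are the only members called with stimulation, with capitals as above.
Psma5, chr3:108256676-108256975, plus strand: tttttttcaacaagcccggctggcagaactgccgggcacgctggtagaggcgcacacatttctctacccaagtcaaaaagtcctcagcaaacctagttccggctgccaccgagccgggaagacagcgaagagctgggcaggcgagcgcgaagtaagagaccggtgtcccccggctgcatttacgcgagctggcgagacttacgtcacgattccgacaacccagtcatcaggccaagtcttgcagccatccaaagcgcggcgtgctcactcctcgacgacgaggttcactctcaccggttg
Psmc3ip, chr11:101095386-101095685, minus strand: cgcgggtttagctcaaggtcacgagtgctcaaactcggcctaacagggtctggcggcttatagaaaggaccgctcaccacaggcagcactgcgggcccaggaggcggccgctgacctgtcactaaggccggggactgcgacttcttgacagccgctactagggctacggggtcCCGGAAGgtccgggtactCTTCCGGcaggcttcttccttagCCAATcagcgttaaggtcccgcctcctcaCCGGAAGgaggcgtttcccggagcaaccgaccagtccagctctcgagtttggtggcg
Psma5 held none of the 7 strings in this window, with 26 CpG dinucleotides, and its summit at 508 bp lay outside it, while Psmc3ip held the ETS string 3 times and a CCAAT box, the most ETS matches of any member together with Psma6.

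Across all members more stood higher than lower in H3K27ac. With stimulation 29 of 45 members stood higher in diabetic BMDMs (64.4%, against 47.3% of all genes), with a median difference of 3.704 points against −0.458 over all genes. In control BMDMs 31 of 45 did (68.9% against 50.1%), with a median of 1.94 against 0.00685, and a median of 2.51 without the 3 cultures. The groups share no library between these 2 comparisons, but the genes of one library are not independent of each other. The same unstimulated libraries also enter the comparisons with HSCs. There the median member differed from HSCs to BMDMs by −3.09 points in control and −2.53 in diabetic mice. In H3K4me3 the medians were 0.0105 in diabetic and 0.449 in control BMDMs. The library medians of the alpha ring, which holds Psma5, averaged 91.7 ± 6.4 (SD, n = 6) in LPS+IFN-γ and 83.6 ± 7.1 (n = 5) in unstimulated diabetic BMDMs, and 91.2 ± 2.7 and 87.3 ± 5.6 (n = 6 each) in control BMDMs. Those of the beta ring were 88.5 and 83.5 in diabetic and 85.6 and 83.0 in control BMDMs, and those of the ATPases 76.5 and 70.6, and 79.8 and 71.6. The other 19S subunits stood at 85.8 and 83.7 in diabetic but 83.2 and 84.8 in control BMDMs, and the assembly chaperones at 76.0 and 75.5, and 73.0 and 71.98. Of the members that did not pass, Psmd10 differed by 20.8 in diabetic BMDMs (SE 6.81, adjusted p = 0.0834), and Psmc4 had the largest statistic in control BMDMs (difference 12.6, SE 5.28, adjusted p = 0.933). In H3K4me3 Psma3 was 61.9 ± 12.9 (n = 6) in LPS+IFN-γ and 91.0 ± 4.7 (n = 5) in unstimulated diabetic BMDMs, a difference of −29.1 points without overlap and with an adjusted p of 0.405. In control BMDMs the largest statistic was that of Psmd6 (difference −16.9, adjusted p = 1.00).

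The immune subunits, which the rule left out, are given beside the standard ones. In H3K27ac Psmb9 averaged 95.3 ± 3.8 in diabetic LPS+IFN-γ BMDMs against 88.9 ± 5.5 in unstimulated ones, and 94.0 ± 7.9 against 82.9 ± 9.8 in control BMDMs, and Psmb8 90.3 ± 7.1 against 78.1 ± 9.1 and 95.1 ± 3.6 against 83.8 ± 7.4 (SD, n = 6, and 5 for unstimulated diabetic). Psme2 stood at 79.0 ± 7.6 against 84.1 ± 11.01 in control BMDMs, and Psme1 at 84.9 ± 7.1 against 83.6 ± 11.2. Psmb10 stood at 67.1 ± 11.7 against 54.1 ± 4.0 in diabetic and 62.0 ± 4.8 against 58.2 ± 5.0 in control BMDMs. Over the 5 genes the median difference with stimulation was 6.42 points in diabetic and 3.75 in control BMDMs, with 0 of 5 passing the limma test in either (without the 3 cultures Psmb9 passed in control BMDMs, 18.8, adjusted p = 0.00544). At an unadjusted p under 0.05 there were 2 of 5 in each, all higher. These were Psmb8 and Psmb10 in diabetic BMDMs, beside 18.6% of all genes, and Psmb8 and Psmb9 in control BMDMs, beside 5.18%. Among the 12 other proteasome genes Adrm1 fell by 13.7 points in diabetic BMDMs (SE 3.96, adjusted p = 0.0498, groups overlapping) and no other passed. Of the 14 genes of ubiquitin supply and delivery 0 passed the limma test with stimulation in H3K27ac, and 2 in control and 1 in diabetic BMDMs had an unadjusted p under 0.05.

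**Figure D5:**
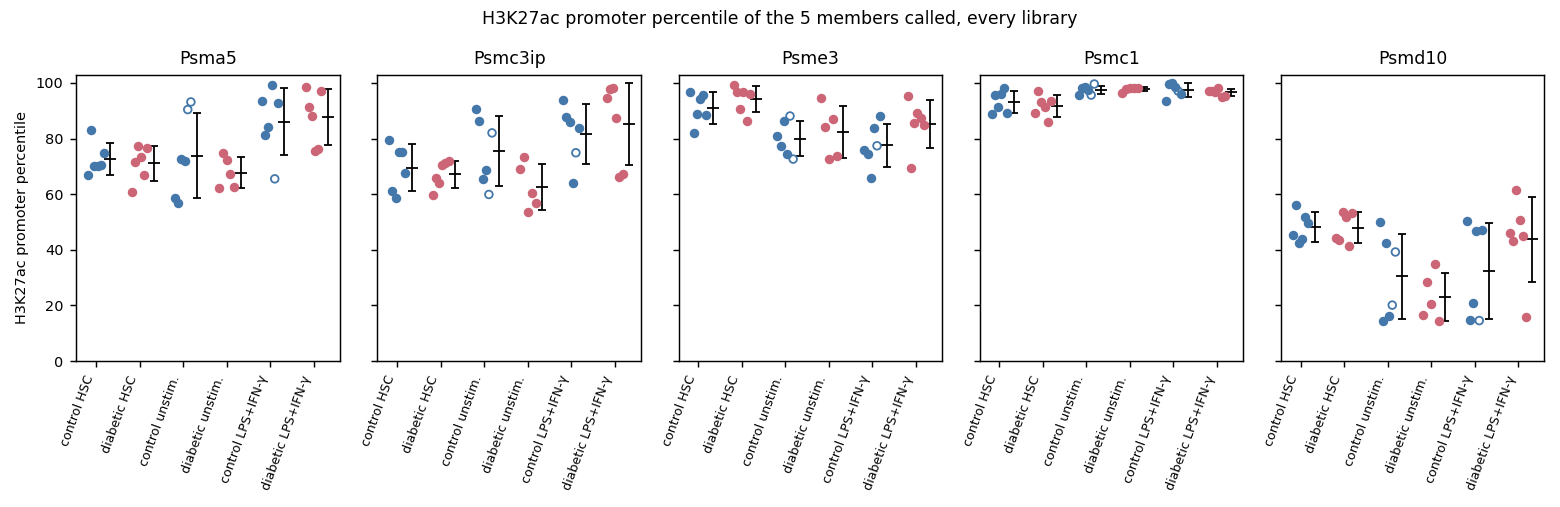
H3K27ac promoter percentile (y axis) of the 5 members that passed a test, one panel a gene, by group (x axis); each point is one library, blue for control and red for diabetic, open points are the 3 control cultures picked on the score, and bars give mean ± SD. Psma5 is higher after LPS+IFN-γ, Psme3 and Psmd10 are lower in unstimulated BMDMs than in HSCs, and Psmc1 stays above percentile 85 throughout.

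Unstimulated BMDMs were compared with HSCs to ask how the promoters differ between progenitors and the macrophages grown from marrow. In H3K27ac 1 of 45 members passed in control mice, Psme3, beside 15.9% of all genes (2683 of 16825, 8.2% higher and 7.75% lower), and 3 of 45 in diabetic mice, Psme3, Psmc1 and Psmd10, also beside 15.9% (2677, 8.6% higher and 7.31% lower). At an unadjusted p under 0.05 there were 9 and 7 members (20.0% and 15.6%), beside 28.9% and 29.0% of genes. In H3K4me3 0 of 44 passed in control mice, beside 5.38% of 17105 genes (3.22% higher and 2.16% lower), and 0 of 44 in diabetic mice, beside 0.345% (0.205% higher and 0.14% lower), with 9 and 6 members at an unadjusted p under 0.05 (20.5% and 13.6%, beside 24.6% and 16.9%). The shares of members were at or below those of all genes in each of these. The median H3K27ac difference was −3.09 points in control and −2.53 in diabetic mice, against −0.388 and −0.299 over all genes, and 1 member in each lay beyond the span that holds 90% of genes. The depletion of HSC samples included Ter119, an erythroid surface marker. In these samples 6 erythroid marker genes averaged H3K27ac percentile 57.0 and 57.7 in control and diabetic HSCs (library range 49.0 to 69.0) against 36.8 and 37.1 in unstimulated BMDMs (34.1 to 43.4), with no marker lacking a peak throughout in HSCs and 3 and 2 in BMDMs. Their part in the differences below was not tested.

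Psme3, the nuclear activator also called PA28γ, was lower in BMDMs in both. Its H3K27ac percentiles in control mice ran from 72.6 over a median of 79.2 to 88.1 in unstimulated BMDMs and from 81.8 over 91.5 to 96.7 in HSCs. In diabetic mice they were 94.6, 84.0, 72.7, 87.0 and 73.7 in BMDMs 1, 2, 4, 5 and 6, and ran from 86.3 over 96.4 to 99.1 in HSCs. The groups overlapped in both. It fell by 10.99 points in control mice (SE 3.94, adjusted p = 0.0496) and by 11.9 in diabetic mice (SE 4.13, adjusted p = 0.0431). The first call lay at the threshold: it was lost without the 3 control cultures (adjusted p = 0.0892) and without any one of unstimulated 1, 2, 4 or 6 or of HSC 1, 3, 4, 5 or 6 (adjusted p of 0.0590 to 0.120). The second was lost without any one of unstimulated 2, 4 or 6 or of HSC 1, 2, 4 or 6 (0.0601 to 0.143). The control call held in 6 of 24 alternatives, and was lost at adjusted p of up to 0.180 with ranking on fold enrichment, and the diabetic call held in 13 of 23 (lost with fold enrichment, 1 start site a gene and no filter, 0.0528 to 0.0623). After stimulation Psme3 stayed at 77.6 ± 7.7 in control and 85.2 ± 8.6 in diabetic BMDMs.

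Psmd10 had the largest difference between cell states among the members called. In diabetic mice its H3K27ac percentile was 44.1, 43.4, 53.6, 51.7, 41.3 and 53.3 in HSCs 1 to 6 and 16.6, 28.5, 20.3, 34.9 and 14.4 in unstimulated BMDMs 1, 2, 4, 5 and 6. No BMDM reached the lowest HSC. A promoter peak was listed in 6 of 6 HSC and 2 of 5 BMDM libraries, and the values of the other 3 are the shared rank of genes without a peak. It fell by 24.96 points (SE 6.81, adjusted p = 0.00885), and the call held without each library in turn, with differences of −28.0 to −22.8. In control mice it differed by −17.8 (SE 6.495, adjusted p = 0.0548), with a peak in 6 of 6 HSC and 3 of 6 BMDM libraries, and by −17.4 without the 3 cultures (adjusted p = 0.104). After stimulation a peak was listed in 5 of 6 diabetic and 3 of 6 control libraries. Because the promoters of Psmd10 and Atg4a overlap and their values were identical, the values cannot be assigned to either gene.

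Psmc1 moved the other way within a narrow range, from 89.1, 97.1, 93.3, 91.2, 85.96 and 93.5 in diabetic HSCs 1 to 6 to 96.5, 97.9, 98.3, 98.1 and 98.2 in unstimulated BMDMs 1, 2, 4, 5 and 6. One HSC library, number 2, lay within the BMDM range. It rose by 6.11 points (SE 2.00, adjusted p = 0.0304), and the call was lost without any one of unstimulated 2, 4, 5 or 6 or of HSC 1, 4 or 5 (adjusted p of 0.0511 to 0.0947). Ranking on fold enrichment (adjusted p = 0.745), a normal score (0.0709) and the 2 groups alone (0.0687) also ended it. In control mice Psmc1 differed by 4.25 (SE 1.90, adjusted p = 0.126), and by 4.16 without the 3 cultures (adjusted p = 0.222).

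The promoters of Psme3 and Psmd10 are printed as those of the 2 members called lower by percentile in BMDMs than in HSCs, with capitals as above.
Psme3, chr11:101315963-101316262, plus strand: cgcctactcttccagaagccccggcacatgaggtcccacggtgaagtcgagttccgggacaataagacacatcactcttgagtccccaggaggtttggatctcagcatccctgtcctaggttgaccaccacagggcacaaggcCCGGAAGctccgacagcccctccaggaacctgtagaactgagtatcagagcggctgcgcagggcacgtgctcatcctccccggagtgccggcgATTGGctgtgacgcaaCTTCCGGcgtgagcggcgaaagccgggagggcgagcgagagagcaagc
Psmd10, chrX:140956662-140956961, minus strand: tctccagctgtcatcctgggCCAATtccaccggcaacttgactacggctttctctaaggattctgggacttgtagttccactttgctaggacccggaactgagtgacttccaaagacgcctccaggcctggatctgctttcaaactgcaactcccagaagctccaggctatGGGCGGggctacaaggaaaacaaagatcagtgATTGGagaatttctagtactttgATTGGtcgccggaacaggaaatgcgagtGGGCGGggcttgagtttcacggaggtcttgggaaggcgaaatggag
Psme3 held the ETS string once on each strand, one next to its start site, and a CCAAT box. Psmd10 held 3 CCAAT boxes and 2 GC boxes, with 11 CpG dinucleotides against 21 in Psme3.

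Occupancy of the 10000 strongest H3K27ac peaks called 1 of 2 testable members in each cell state comparison, both cap ATPases. Psmc4 was among them in 6 of 6 control HSC and 1 of 6 unstimulated control BMDM libraries (Fisher's exact test, two-sided, p = 0.0152, adjusted p = 0.0431; 1 of 4 without the 3 cultures, exact p = 0.0333), beside 35.1% of 1141 testable genes. Psmc5 was among them in 6 of 6 diabetic HSC and 1 of 5 unstimulated diabetic BMDM libraries (exact p = 0.0152, adjusted p = 0.0451), beside 33.6% of 1546. Their percentiles gave the same direction without passing: Psmc4 was 58.5 ± 6.0 in control BMDMs and 68.1 ± 8.1 in HSCs (adjusted p = 0.225), and Psmc5 55.3 ± 6.7 (n = 5) in diabetic BMDMs and 67.1 ± 4.5 (n = 6) in HSCs (adjusted p = 0.0838). In H3K4me3 the largest statistics were Psmd12 in control mice, 77.2 ± 8.5 in BMDMs and 52.8 ± 14.1 in HSCs (adjusted p = 0.0693), and Psmd14 in diabetic mice, 94.1 ± 5.5 (n = 5) and 68.7 ± 21.9 (n = 6; adjusted p = 0.0984), where the lowest HSC value, 29.6, is that of the shortest list.

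In the neighbouring pathway 2 of 5 immune subunits passed in H3K27ac of control mice and 1 of 5 in diabetic mice, beside 15.9% of all genes in each. Of the 12 other proteasome genes 0 passed in either. Of the 14 genes of ubiquitin supply and delivery 1 passed in control and 0 in diabetic mice. Psmb9 rose from HSCs to BMDMs by 11.3 points in control mice (adjusted p = 0.0289) and by 15.6 in diabetic mice (adjusted p = 0.00385), in the latter from 73.3 ± 4.5 (n = 6) to 88.9 ± 5.5 (n = 5) without overlap, and Psmb8 by 13.7 in control mice (adjusted p = 0.00916). Without the 3 cultures both control calls were lost, at 6.68 for Psmb9 (adjusted p = 0.214) and 11.9 for Psmb8 (adjusted p = 0.0535). In H3K4me3 of control mice Ecpas, a proteasome scaffold, fell by 20.1 (adjusted p = 0.0253) and Uba1, the main ubiquitin-activating enzyme, rose by 23.6 (adjusted p = 0.0283).

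Whether diabetes altered the effect of stimulation or of cell state was tested as an interaction. No member passed in H3K27ac (0% of genes in both) or in H3K4me3 (0% for stimulation and 0.0117% for cell state). At an unadjusted p under 0.05 there were 3 of 45 members for stimulation and 3 for cell state in H3K27ac, beside 6.56% and 3.14% of genes, and 1 and 3 of 44 in H3K4me3, beside 4.82% and 4.23%. The largest statistics were those of Psme4 (difference of effects −10.6, SE 3.98, adjusted p = 0.667) and Psmc2 (19.5, SE 7.31, adjusted p = 1.00) in H3K27ac, and of Psmd5 (27.3, SE 11.6, adjusted p = 0.985) and Psmc2 (22.7, SE 8.64, adjusted p = 0.999) in H3K4me3. Psmc2 had the largest statistic for the interaction with cell state in both marks and passed in neither.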

How the data were processed

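H3K27ac and H3K4me3 peak lists of 70 libraries were used. The 36 input samples were not used, and the third unstimulated diabetic BMDM library of each mark is not analysed here. Per the submitters' processing notes, reads were handled with Trim Galore 0.3.3, cutadapt 1.8, FastQC 0.11.3, Bowtie2 2.2.6, Picard 2.18.14 and 2.19.2, bedtools 2.19.1 and MACS2 2.2.7.1. The deposited narrowPeak files, one list per library, hold an integer score, the fold enrichment at the summit, −log10 p and −log10 q as the authors' peak caller wrote them, with no q above 0.05 (lowest −log10 q 1.30104). Read totals were not given, so precision rests on the number of libraries.

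Here promoters (1000 bp either side of 93513 start sites of 21938 protein-coding genes, GRCm38) were overlapped with peaks by at least 1 bp, and genes were ranked in each library by the −log10 p of the strongest peak. Genes without a promoter peak were tied at the bottom. Ranks lessen the effect of list length but do not remove it, since the shared rank of genes without a peak is higher in shorter lists. Genes with a promoter peak in at least 6 of 35 libraries were tested with limma 3.58.1 (R 4.3.3; moderated, trended variance, two-sided) over all 35 libraries of a mark in 6 groups, with Benjamini-Hochberg adjustment over all genes of a comparison and calls at 0.05. This gave 16825 genes (45 members) in H3K27ac and 17105 (44 members) in H3K4me3. Occupancy of the 10000 strongest peaks was tested with Fisher's exact test over genes that could reach p = 0.05. Tables were made with Python 3.11.15 (numpy 2.4.6, pandas 2.3.3, scipy 1.17.1). On simulated data for diabetic against control HSCs in H3K27ac (16825 genes), 183 of 200 genes shifted by 3 SD were recovered, with 10 false calls. Recovery of smaller shifts was not tested, so that a count of 0 does not exclude them.

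Members called were named, or, with none called, the member with the largest statistic, along with the highest, the lowest and the most different between marks. The members, gene lists and alternatives were chosen with earlier results of these data known. Genes whose promoters overlap can take the same peak and so the same value: 12 members have a promoter that overlaps that of another gene. The alternatives tried were ranking on fold enrichment, a promoter reach of 500 or 2000 bp, 1 start site a gene, the summit in the promoter, peaks with −log10 q of 5 or more, no filter, a normal score of the rank, the 2 groups alone, a replicate block, list length as a covariate, leaving out the 3 control cultures, 4 H3K4me3 libraries whose scaling an earlier account of these files questioned, or each library in turn, and the 5000 or 20000 strongest peaks or those by fold. The values of 1 gene of the pathway lists are not reported here.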

Additional observations from a re-analysis of the deposited data

Results flagged for a closer look

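Of 66 checks for a library far from the rest of its group, 7 stood out by Dixon's criterion. Chance alone meets it in about 1 of 20 groups of continuous values. That rate does not hold for counts of members, in which libraries often tie. Control HSC 1 had an H3K27ac promoter peak at all 45 members, and the other libraries of its group at 44. Control HSC 3 had 40 members in the 10000 strongest H3K27ac peaks, and the others 41. The median member stood at percentile 86.9 of H3K27ac in control LPS+IFN-γ BMDM 1, above the next highest at 81.5. Psmc1 in H3K27ac was lowest in diabetic unstimulated BMDM 1, at 96.5, below the next at 97.9, within the group that was called higher than HSCs.

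In H3K4me3, control LPS+IFN-γ BMDM 3 had a peak at 41 members and control unstimulated BMDM 4 at 42, while no other library of either group had fewer than 44. Diabetic HSC 5 had 35 members in the 10000 strongest H3K4me3 peaks, and the next highest of its group 26.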

How the results depend on the processing

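The count of 0 members called between diabetic and control libraries, and in the interactions, held under every alternative run. Among the repeats of each named gene's difference, 479 kept their direction and side of the threshold, 61 kept the direction but lost the call, 3 gained one and 1 reversed (Psmd5 in H3K4me3, the interaction with stimulation, at −5.45 with 1 start site a gene). The Psma5 interaction, not among these, turned from 7.82 to −5.24 without the 3 cultures. Psmd10 in diabetic mice was called under all alternatives. The other counts rest on adjusted p-values near 0.05, and the cause of each change was not tested.

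For cell state in H3K27ac of control mice (1 member), ranking on fold enrichment gave 2, a reach of 2000 bp 2, 1 start site a gene 2, the 2 groups alone 2 and the 3 cultures left out 2 (Psmb7 and Psmd6, with Psme3 lost), while a reach of 500 bp, the summit in the promoter, −log10 q of 5 or more, no filter and a normal score gave 0. Leaving out each library gave 0 to 4 (4 without unstimulated BMDM 1 and 3 without unstimulated BMDM 3, both with Psmd10 and Psmg2), and 1 to 3 in diabetic mice (3 members). For stimulation in H3K27ac of diabetic mice (2 members), ranking on fold and the 2 groups alone gave 0, and 1 start site a gene, −log10 q of 5 or more, no filter and a normal score gave 1 (Psmc3ip). Leaving out each library gave 0 to 2. In control mice (0 members) leaving out the 3 cultures gave 1, Psma5. For cell state in H3K4me3 of control mice (0 members), 1 start site a gene gave 1, −log10 q of 5 or more 1 and the 2 groups alone 2. Leaving out each library gave 0 to 3 there, with 3 without control HSC 1, and 0 to 3 in diabetic mice, with 3 without diabetic HSC 5. Occupancy calls between cell states (1 member in each) fell to 0 with the 5000 or 20000 strongest peaks, in control mice also by fold, and ran from 0 to 3 in control (3 without unstimulated BMDM 1) and 0 to 1 in diabetic mice without each library.

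Whether equal numbers mark paired libraries is not known: no comparison had every same-number pair above r of 0.1 (mean r of −0.0725 to 0.169), but the 4 stimulation comparisons had mean r of 0.107 to 0.169, and they were treated as unpaired. The replicate block gave 2 members for cell state in H3K27ac of control mice (Psmc5 and Psmd10) and 1 for stimulation in diabetic mice (Psmc3ip), and in no other comparison moved the count by over 1.5 times. Every sample correlated best with its own number in no comparison.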
